A study of Mus musculus with 18 samples.

Results

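The genes described here are 10 members of the MYC/MAX and MLX network of transcription factors, out of 55487 gene identifiers in the table of gene counts. They were taken by gene symbol: Myc, its partner Max, the antagonists Mxd1, Mxd4, Mxi1 and Mnt, the related factors Mlx and Mlxipl, and Txnip and Arrdc4, which are target genes of the MLX factors. All 10 symbols were found and all 10 passed the filter on low counts, but Mlxipl passed it only through knock-out libraries. A gene kept because it is high in 1 genotype had to differ, so Mlxipl is described by its reads and is not counted among the tested members, which leaves 9.

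RNA was sequenced from sorted splenic NK cells, the innate cytotoxic lymphocytes of the spleen, of mice in which a tamoxifen-activated Cre (CRE-ERT2) is driven from Ncr1, a gene of NK cells and related innate lymphoid cells. Knock-out (KO) cells were Acly fl/fl and also Rosa YFP/YFP with Ncr1 CRE-ERT2, and wild-type (WT) cells had Rosa YFP/YFP with Ncr1 CRE-ERT2 alone, so both genotypes carried the Cre and the YFP reporter of its activity. Acly encodes ATP-citrate lyase, an enzyme that turns exported citrate into cytosolic acetyl-CoA. Mice of both genotypes ate tamoxifen diet for 48 hours, and YFP+ NK cells were sorted 5 days after the diet ended. The KO and the WT groups each comprised 3 libraries of fresh cells, 3 of primed cells (72 hours in IL-15, 100 ng/ml), and 3 of primed cells that were washed and then held for 6 hours on plate-bound NKG2D reagent (20 ug/ml), which engages an activating receptor of NK cells. Whether replicates came from different animals is not in the labels, so the spread among the libraries of a group may be technical. The p-values rest on that spread, estimated over all 18 libraries in a single fit. Beyond counting error, the common coefficient of variation was 0.163 among fresh, 0.316 among primed and 0.218 among NKG2D libraries. It was 0.234 over all 18, so a p-value in fresh cells also draws on the wider spread of the primed libraries.

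MYC is a transcription factor that drives growth, ribosome production and nutrient uptake when lymphocytes are activated, and it binds DNA at E-boxes only as a dimer with MAX. The MXD proteins, MXI1 and MNT compete with MYC for MAX and recruit corepressors to the same sites. MLX is a partner for MNT and some MXD proteins and, in a parallel branch, for the glucose-responsive factors MondoA (Mlxip) and ChREBP (Mlxipl), whose best known targets are Txnip and Arrdc4, alpha-arrestins that restrain glucose uptake.

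The libraries held 14772350 to 34367582 reads, and 14864 genes were tested. Primed KO replicate 1 had reads for 14695 genes, against 17877 to 19668 in the other libraries, and its mean correlation with its own group was 0.932, against 0.955 to 0.983 for the others. Calls named below that are lost without this library are given with and without it. Acly itself was at 15.3 to 48.9 CPM (reads scaled to a common library size with TMM factors) in the KO libraries and at 128 to 279.6 CPM in the WT libraries. All 9 NK cell markers examined averaged at least 1 CPM in every group. Erythroid markers summed to 16.4 to 18.1 CPM in fresh KO and to 115 to 201 CPM in fresh WT libraries, and 4 of 6 were called lower in KO. After NKG2D, 7 T cell markers summed to 26.8 to 27.1 CPM in KO and 41.7 to 66.9 CPM in WT libraries, with Cd4 and Cd8a at or near 0 in both. Of the 5 tested, Cd3g (log2 fold change -1.36, adjusted p = 0.00523) and Cd3d (-1.19, adjusted p = 0.0235) were called lower in KO and 3 were not called. At the same time 7 markers of monocytes, macrophages and neutrophils summed to 90.3 to 109 CPM in KO and 46.9 to 68.9 CPM in WT libraries, nearly all of it Cd68, while Lyz2, S100a8 and S100a9 were at 0 in both. Cd68 was called higher in KO there (0.73, adjusted p = 0.00261), and the other 3 tested markers of that list were not called. In primed cells the T cell markers summed to 32.4 to 39.7 CPM in KO and 41.6 to 76.0 CPM in WT libraries, with Cd3g called lower in KO (log2 fold change -1.61, adjusted p = 0.00209). The list did not move together, since the median log2 fold change of its 5 tested genes was 0.18 and only Cd3g was called. Cd3e held 46, 36 and 29 reads in primed KO and 28, 5 and 4 in primed WT libraries. The monocyte, macrophage and neutrophil markers summed there to 37.2 to 41.4 CPM in KO and 51.8 to 65.8 CPM in WT libraries, with Cd68 called lower in KO (-0.53, adjusted p = 0.0236), and Cd4, Lyz2, S100a8 and S100a9 were at 0 in both. The part of these markers in the results below was not tested. In bulk samples, fewer cells of a type and less RNA per cell cannot be told apart.

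Promoter stretches are shown for Txnip, Arrdc4, Mlxipl, Mxd4 and Max, each of which held a motif. Factors of this network bind the E-box CACGTG and the MLX factors a pair of such elements spaced 5 bases apart. RefSeq promoters (GRCm38.p6, 250 bases before to 50 after the start) were matched for 9 of the 10 members, 12 promoters in all. None was matched for Myc. CACGTG, which reads the same on both strands, was in 6 of the 12 member promoters (50%) and in 2349 of 32851 promoters (7.15%). The spaced pair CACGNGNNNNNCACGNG, searched on both strands and open to CACGTG as an element, was in 1 member promoter (8.33%) and in 16 of 32851 (0.0487%). A match describes the letters and is not a measured binding site. In each line the capitals mark the motif, with 20 bases on either side, except that the stretch of Max is cut short just after its E-box. The stretch shown for Txnip is chr3:96557852-96557908 on the plus strand, and its spaced pair, at 96557872 to 96557888, begins 85 bases before the start. That shown for Arrdc4 is chr7:68749406-68749451 on the minus strand, with the E-box at 68749426 to 68749431, beginning 193 bases before the start. The stretches of Mlxipl (plus strand, chr5:135089772-135089817), Mxd4 (minus strand, chr5:34187904-34187949) and Max (minus strand, chr12:76962242-76962271) hold E-boxes that begin 98, 219 and 3 bases before the start.
Txnip: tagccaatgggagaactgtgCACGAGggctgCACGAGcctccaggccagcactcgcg
Arrdc4: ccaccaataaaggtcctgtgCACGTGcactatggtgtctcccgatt
Mlxipl: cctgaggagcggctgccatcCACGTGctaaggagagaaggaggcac
Mxd4: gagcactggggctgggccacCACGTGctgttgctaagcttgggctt
Max: cccggcgcggtgagcccggtCACGTGttag
Mnt and Mlx also held CACGTG, and the Mxd1 and Mxi1 windows held neither motif. The other Mlxipl window (chr5:135106641-135106940) held neither motif as well.

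Each of the 9 tested members was examined in 9 comparisons with the quasi-likelihood test of edgeR, adjusted over all genes tested, at a threshold of 0.05. Between genotypes, KO over WT, 0 of 9 members passed in fresh cells, where 0.0673% of all genes did, 1 passed in primed cells (background 15.5%) and 3 after NKG2D (background 18.2%). In primed cells Max was lower in KO, where 7% of all genes were higher and 8.52% lower. After NKG2D Mxd1 was higher and Myc and Txnip were lower, where 8.75% of all genes were higher and 9.47% lower. The fresh background was 0.0135% higher and 0.0538% lower. In fresh cells 3 members had an unadjusted p below the threshold, 0 passed with DESeq2 and 2 with limma voom. Of all 14864 genes, 1903 had such an unadjusted p, and their DESeq2 and limma voom counts are given in the closing section. Priming, primed over fresh, moved 8 members in KO cells (1 higher and 7 lower, against 23% and 25.7% of all genes, background 48.7%) and 6 in WT cells (2 higher and 4 lower, against 26.5% and 27.2%, background 53.7%). Stimulation, NKG2D over primed, moved 6 members in KO cells (5 higher and 1 lower, against 18.4% and 16.9%, background 35.3%) and 5 in WT cells (3 higher and 2 lower, against 9.2% and 10.7%, background 19.9%). The 2 responses in a genotype share their primed libraries, and the genotype comparisons of a condition share libraries with the responses.

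**Figure D1:**
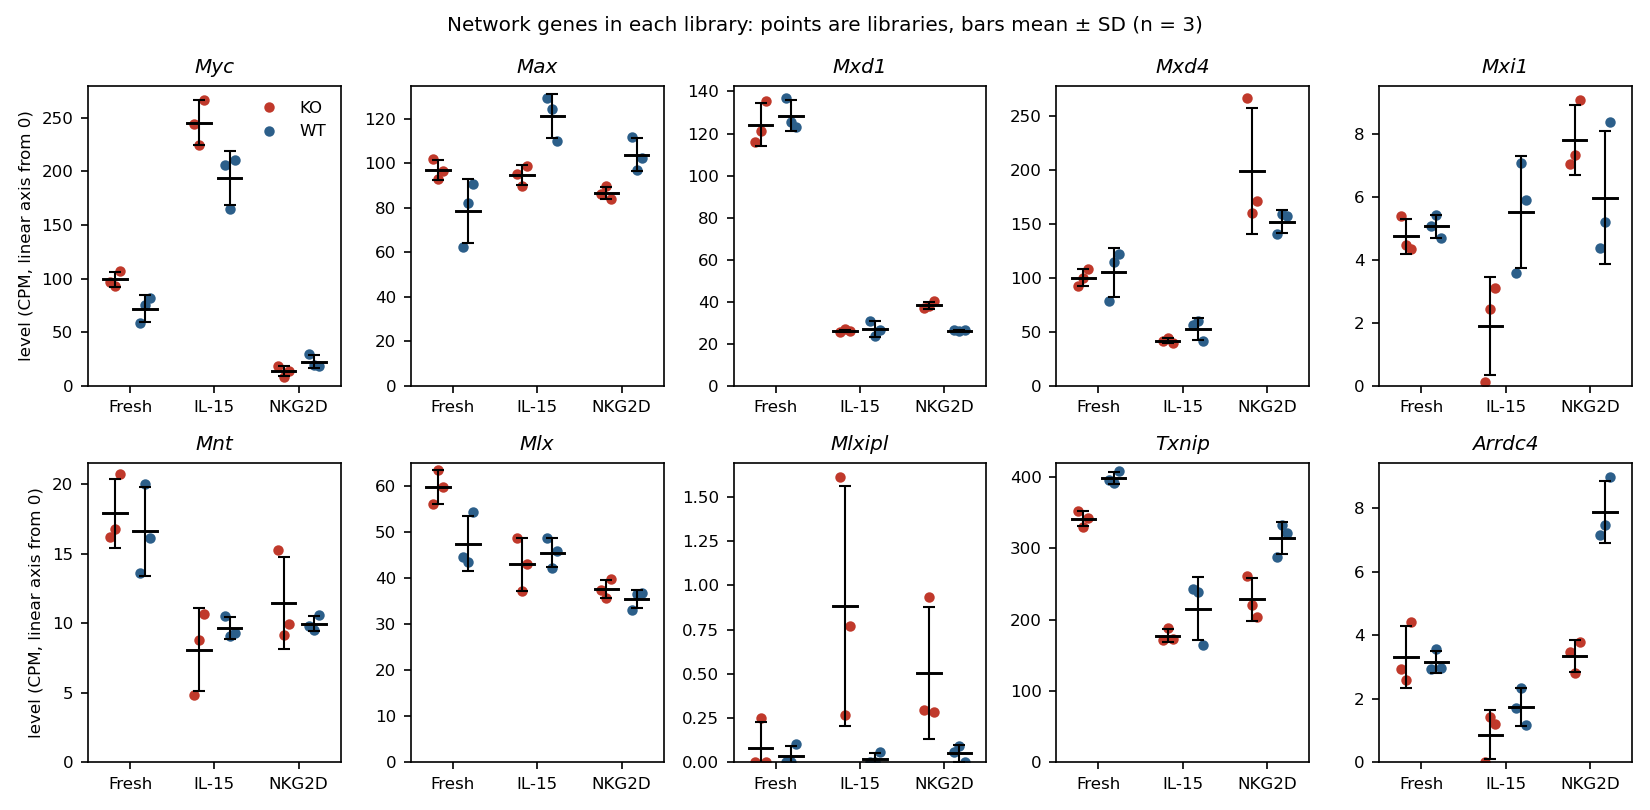
Level in CPM (linear axis from 0) of each of the 10 genes in every library, KO left of WT in each condition; points are libraries and bars the mean ± SD of 3. Myc is highest in primed and lowest in NKG2D-stimulated cells of both genotypes, Mxd1 is highest in fresh cells, and Arrdc4 after NKG2D lies between 2.81 and 3.79 CPM in KO libraries, below every WT library.

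Per kilobase of exon, Txnip had the highest level of the members in fresh and stimulated cells of both genotypes, and Myc in primed KO cells, at 90.3 ± 7.74 CPM per kb against 56.8 for Txnip. In primed WT cells Myc (71.4 ± 9.2) and Txnip (69.0) were within their spread. After NKG2D, Txnip stood at 73.1 ± 9.63 CPM per kb in KO cells and 100.5 ± 7.3 in WT cells (SD, n = 3 each). Max (24.1 ± 0.779 in KO and 28.8 ± 2.06 in WT) and Mxd4 (23.5 ± 6.87 and 17.9 ± 1.23) followed, then Mlx at 18.8 ± 0.988 in KO and 17.7 ± 1.01 in WT. In KO cells Mxd4 was within its spread of both Max and Mlx. Mxd1 and Myc came next, at 5.42 ± 0.233 and 5.12 ± 1.87 in KO, again within their spread, and at 3.72 ± 0.0205 and 8.37 ± 2.25 in WT. Mnt, Mxi1, Arrdc4 and Mlxipl were low in every group, with Arrdc4 at 0.832 ± 0.125 CPM per kb in KO and 1.95 ± 0.241 in WT after NKG2D.

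Myc, at 61985391 to 61990374 on chromosome 15 (plus strand, mm10), had the widest swing among the well expressed members. In KO cells it was at 97.3, 93.4 and 107 CPM when fresh, 245, 225 and 267 CPM when primed, and 18.8, 8.65 and 14.3 CPM after NKG2D. In WT cells it was at 58.2, 75.8 and 82.4 CPM when fresh, 206, 165 and 211 CPM when primed, and 29.8, 19.5 and 18.9 CPM after NKG2D. In both genotypes every primed library lay above every fresh one and every stimulated library below every fresh one, and within each condition no KO library overlapped a WT library. Priming raised Myc by 1.31 on the log2 scale in KO (SE 0.217, adjusted p = 8.76e-05) and by 1.43 in WT (SE 0.218, adjusted p = 2.97e-05). After NKG2D, Myc fell to 5.69% of its primed level in KO (log2 fold change -4.14, SE 0.245, adjusted p = 2.27e-09) and to 11.8% in WT (log2 fold change -3.09, SE 0.233, adjusted p = 1e-07). The stimulated cells had been washed as well as placed on the NKG2D reagent, so the wash and the stimulus cannot be told apart. Primed cells had been cultured as well as given IL-15, and no group was cultured without it. In every priming response given here, the culture and the IL-15 therefore cannot be told apart.

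The estimated genotype difference in Myc had a different sign before and after stimulation. KO over WT, the log2 fold change was 0.46 in fresh cells (SE 0.215, adjusted p = 0.384) and 0.34 in primed cells (SE 0.213, adjusted p = 0.298), neither past the threshold. After NKG2D, Myc was lower in KO by edgeR, with a log2 fold change of -0.71 (SE 0.223, 95% interval -1.18 to -0.24, adjusted p = 0.0349). The margin between the genotypes was narrow, since the highest KO library (18.8 CPM) lay just under the lowest WT library (18.9 CPM). The call was lost without KO replicate 2 (-0.48, adjusted p = 0.121), KO replicate 3 (-0.74, adjusted p = 0.0931) or WT replicate 1 (-0.46, adjusted p = 0.195), and with the NKG2D libraries fitted alone (adjusted p = 0.112). The larger loss of Myc on stimulation in KO than in WT, a difference of -1.05 between the log2 responses (SE 0.309), had an adjusted p of 0.0719 and did not pass. That difference passed with DESeq2 (-1.08, adjusted p = 0.0151), limma voom (-1.01, adjusted p = 0.00963) and no filter (-1.08, adjusted p = 8.35e-05).

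Of the other MYC genes, Mycn, a paralogue active in progenitor cells, was seen mainly in primed cells. Primed KO libraries held 0.670, 1.82 and 1.49 CPM of Mycn and primed WT libraries 2.88, 2.24 and 5.81 CPM, without overlap, and no library of another condition exceeded 0.571 CPM. The primed genotype difference of -1.45 did not pass (SE 0.679, adjusted p = 0.159). Mycl did not exceed 0.142 CPM in any library and was not tested.

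Max, at 76937269 to 76962201 on chromosome 12 (minus strand), is the obligate partner of MYC and of its antagonists, and its level changed far less than that of Myc. In KO cells it was at 102, 93.0 and 96.3 CPM when fresh, 95.3, 89.8 and 98.5 CPM when primed, and 86.1, 89.6 and 84.0 CPM after NKG2D. In WT cells it was at 62.5, 82.2 and 90.5 CPM when fresh, 129, 124 and 110.1 CPM when primed, and 112, 97.1 and 102 CPM after NKG2D. The KO libraries were all above the WT libraries when fresh and all below them when primed and after NKG2D. On priming the log2 fold change of Max in KO was -0.04 (SE 0.115, adjusted p = 0.811), whereas Max rose in WT (0.63, SE 0.115, adjusted p = 0.000184), and the difference between those responses was -0.67 (SE 0.162, adjusted p = 0.0147). Among all genes 10.5% passed that test of a difference (4.08% above and 6.41% below 0), and Max was the 1 member of 9 that did. It was lost without fresh KO replicate 1 (-0.60, adjusted p = 0.0552), primed WT replicate 1 (-0.59, adjusted p = 0.0581) or primed WT replicate 2 (-0.62, adjusted p = 0.0543), and without primed KO replicate 1 it was -0.64 with an adjusted p of 0.0353.

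Within primed cells Max was lower in KO (log2 fold change -0.36, SE 0.115, adjusted p = 0.0421). This call was lost without any 1 primed KO library (adjusted p = 0.0989 without KO replicate 1, 0.124 without replicate 2 and 0.0565 without replicate 3) and without WT replicate 1 (adjusted p = 0.165) or WT replicate 2 (adjusted p = 0.141). Over the 6 fits that left out 1 primed library, the log2 fold change of Max was -0.43 to -0.30, and the fit without WT replicate 3 was the one that passed. It was also lost with RLE factors (adjusted p = 0.053), no filter (0.16) and the primed libraries alone (0.0841). In fresh cells it was 0.31 (SE 0.115, adjusted p = 0.27) and after NKG2D -0.26 (SE 0.114, adjusted p = 0.127).

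**Figure D2:**
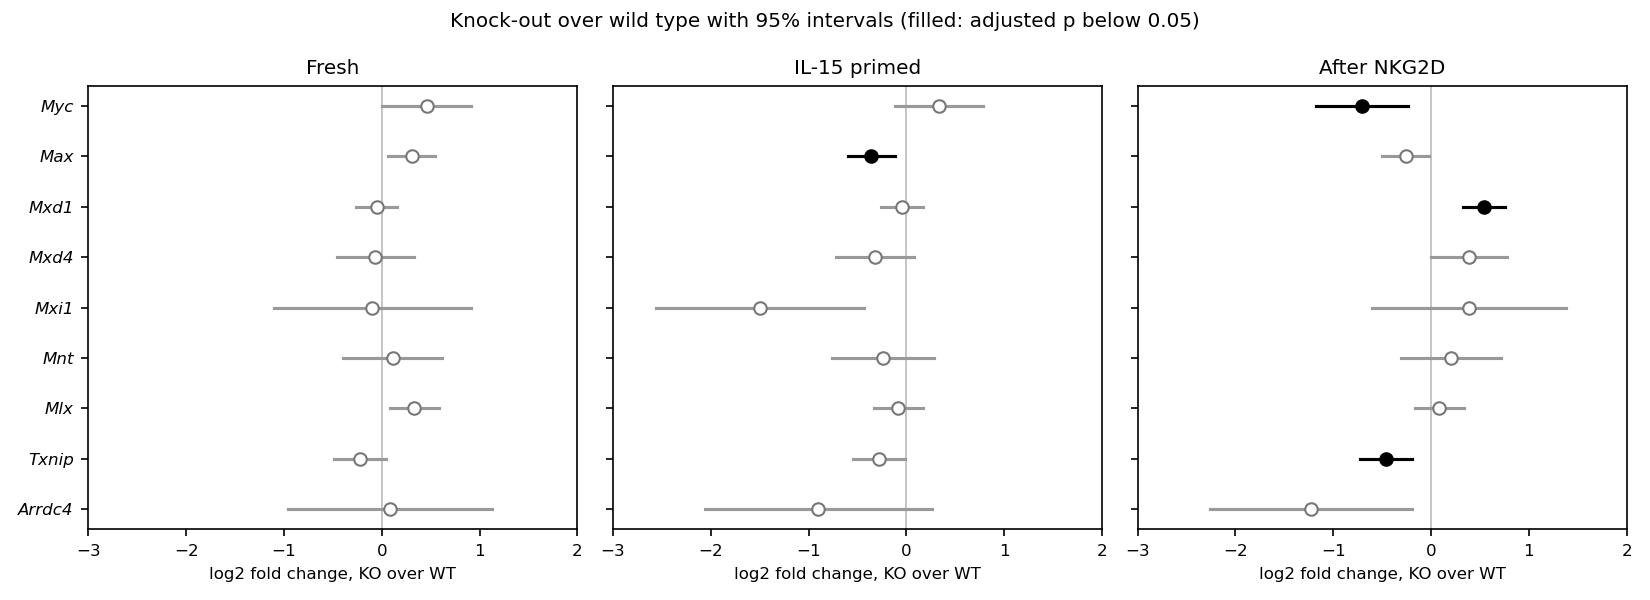
Log2 fold change, KO over WT, of the 9 tested genes (without Mlxipl) in fresh, IL-15-primed and NKG2D-stimulated cells, with 95% intervals; filled points have an adjusted p below 0.05. No point is filled in fresh cells, Max is filled in primed cells, and Myc, Mxd1 and Txnip are filled after NKG2D.

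Among the antagonists, Mxd1 (MAD1), which accompanies the exit from proliferation in many lineages, was high in fresh cells and low after priming. Fresh KO libraries held 116, 121 and 136 CPM and fresh WT libraries 137, 126 and 123 CPM. Primed KO libraries held 25.7, 26.8 and 26.2 CPM and primed WT libraries 30.8, 23.7 and 26.6 CPM. In both conditions the genotypes overlapped, and Mxd1 fell on priming by 2.24 on the log2 scale in KO (SE 0.105, adjusted p = 1.48e-11) and by 2.25 in WT (SE 0.105, adjusted p = 1.68e-11).

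After NKG2D the genotypes parted at Mxd1. KO libraries held 37.0, 37.8 and 40.2 CPM and WT libraries 26.4, 26.1 and 26.4 CPM, so that every KO library was well above every WT library. Mxd1 was higher in KO by 0.54 on the log2 scale (SE 0.102, 95% interval 0.32 to 0.75, adjusted p = 0.00139). This difference passed in all 6 fits that left out 1 NKG2D library, with adjusted p of 0.002 to 0.0109. In KO cells Mxd1 rose on stimulation (log2 fold change 0.55, SE 0.102, adjusted p = 0.000465), whereas in WT cells the log2 fold change was -0.04 (SE 0.102, adjusted p = 0.829). The difference between those responses was 0.59 (SE 0.144, adjusted p = 0.0322), and Mxd1 was the 1 member of 9 to pass where 3.55% of all genes did (1.49% above and 2.07% below 0). It passed without primed WT replicate 2 (0.67, adjusted p = 0.0245) and without NKG2D KO replicate 1 (0.61, adjusted p = 0.0328). It was lost without any of primed KO replicates 1 to 3, primed WT replicates 1 and 3, NKG2D KO replicates 2 and 3 and NKG2D WT replicates 1 to 3, in which the difference was 0.49 to 0.61 and the adjusted p 0.0508 to 0.105. It was lost as well with no filter (adjusted p = 0.187) and with the 12 libraries of the comparison alone (adjusted p = 0.12). The annotated gene Gm44292 overlaps the span of Mxd1 on the same strand over 2364 bases. After NKG2D it was at 2.23 ± 0.909 CPM in KO and 1.55 ± 0.232 CPM in WT (SD, n = 3 each), and the genotypes overlapped. Its part in the reads of Mxd1 was not tested.

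Mxd4 (MAD4) fell on priming and rose on stimulation in both genotypes. KO libraries held 92.5, 100.0 and 108 CPM when fresh, 42.0, 44.3 and 39.5 CPM when primed, and 266, 160.3 and 171 CPM after NKG2D. WT libraries held 78.9, 115 and 122 CPM when fresh, 56.1, 60.4 and 41.2 CPM when primed, and 140.2, 159 and 157 CPM after NKG2D. Every primed library lay below every fresh and every stimulated one, and after NKG2D the KO libraries were above the WT libraries by a narrow margin, apart from KO replicate 1, which was far above. On priming the log2 fold change was -1.26 in KO (SE 0.19, adjusted p = 3.3e-05) and -1.0 in WT (SE 0.188, adjusted p = 0.000249). On stimulation Mxd4 rose by 2.25 in KO (SE 0.195, adjusted p = 1.43e-07) and 1.53 in WT (SE 0.19, adjusted p = 1.89e-05), and the difference of 0.71 between them did not pass (SE 0.264, adjusted p = 0.157). No genotype comparison of Mxd4 passed, and after NKG2D its log2 fold change was 0.39 (SE 0.185, adjusted p = 0.161).

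Mxd3, an MXD gene linked to S phase that is outside the 10, went the other way on priming. KO libraries held 0.952, 0.550 and 1.74 CPM of Mxd3 when fresh, 30.0, 39.1 and 40.0 CPM when primed, and 80.2, 55.1 and 57.9 CPM after NKG2D, and WT libraries held 1.08, 2.67 and 2.36 CPM, 29.0, 35.8 and 36.6 CPM, and 29.9, 38.5 and 43.3 CPM in the same conditions. All primed libraries were above all fresh ones, and all stimulated KO libraries above all stimulated WT libraries. It rose on priming by 5.01 in KO (SE 0.346, adjusted p = 2.28e-09) and 4.07 in WT (adjusted p = 1.49e-08), and on stimulation in KO (log2 fold change 0.82, adjusted p = 0.027) but without a call in WT (0.14, adjusted p = 0.777). The KO rise on stimulation was lost without primed KO replicate 1 (0.68, adjusted p = 0.103) or NKG2D KO replicate 1 (0.64, adjusted p = 0.114). The KO over WT difference after NKG2D was 0.79 (SE 0.274, adjusted p = 0.0534), short of the threshold.

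Mxi1 (MXI1, also MAD2) was a low gene. KO libraries held 5.4, 4.5 and 4.37 CPM when fresh, 0.134, 2.44 and 3.13 CPM when primed, and 7.05, 7.34 and 9.09 CPM after NKG2D. WT libraries held 5.07, 5.44 and 4.71 CPM when fresh, 3.59, 7.09 and 5.90 CPM when primed, and 4.4, 5.2 and 8.38 CPM after NKG2D. The primed KO libraries lay below every other library, and primed KO replicate 1 was lowest of all. In KO cells Mxi1 fell on priming (log2 fold change -1.28, SE 0.503, adjusted p = 0.0442) and rose on stimulation (2.00, SE 0.505, adjusted p = 0.00507). The fall was lost without primed KO replicate 1 (-0.72, adjusted p = 0.0694) or replicate 2 (-1.47, adjusted p = 0.0554) and without any 1 fresh KO library (adjusted p = 0.127, 0.0854 and 0.084 without replicates 1, 2 and 3). With only the libraries of each comparison fitted, neither the fall (adjusted p = 0.188) nor the rise (adjusted p = 0.0637) passed. Primed KO over WT, the log2 fold change was -1.49 (SE 0.503, adjusted p = 0.0536), just short of the threshold. It passed without primed KO replicate 1 (-0.97, adjusted p = 0.0494) and without replicate 3 (-2.0, adjusted p = 0.0285), and with DESeq2 (-1.51, adjusted p = 0.011).

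Mnt, which pairs with MAX or MLX and is present in resting and growing cells alike, fell on priming in both genotypes, by 1.14 on the log2 scale in KO (SE 0.245, adjusted p = 0.001) and by 0.78 in WT (SE 0.243, adjusted p = 0.0116). KO libraries of fresh cells held 16.2 to 20.7 CPM and those of primed cells 4.83 to 10.7 CPM, and WT libraries held 13.6 to 20.0 CPM when fresh and 9.05 to 10.5 CPM when primed. The groups did not overlap in either genotype. Without fresh WT replicate 2 the WT response was -0.63 with an adjusted p of 0.0659. After NKG2D Mnt was at 15.3, 9.17 and 9.91 CPM in KO and 9.82, 9.49 and 10.6 CPM in WT, and no genotype comparison passed.

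**Figure D3:**
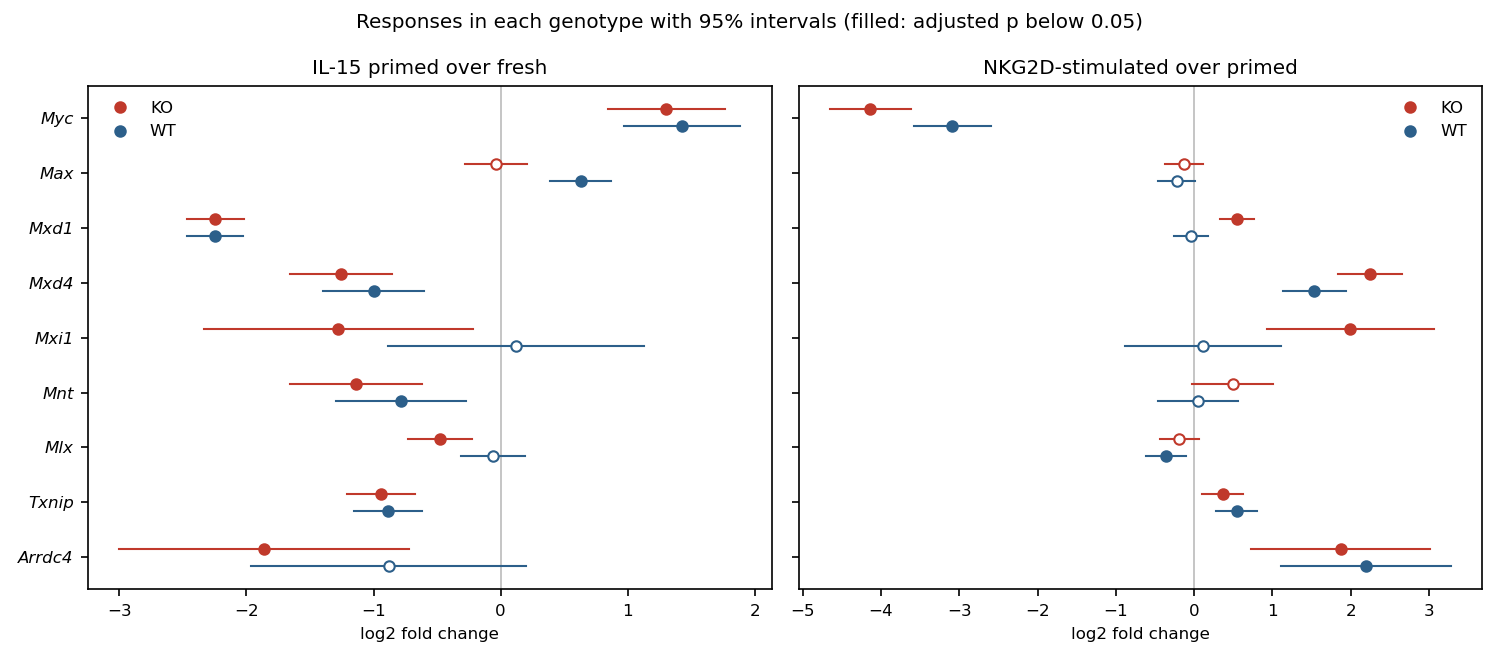
Log2 fold change of the 9 tested genes (without Mlxipl) on priming (IL-15-primed over fresh, left) and on stimulation (NKG2D-stimulated over primed, right), KO drawn above WT, with 95% intervals; filled points have an adjusted p below 0.05. Myc is raised on priming and lowered on stimulation in both genotypes, and Mxd1 is lowered by 2.24 in KO and 2.25 in WT on priming but raised on stimulation in KO with an open point near 0 in WT.

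In the MLX branch, Mlx itself, at 101087277 to 101092207 on chromosome 11 (plus strand), was expressed in every library. KO libraries held 56.0, 63.5 and 59.8 CPM when fresh, 48.7, 37.2 and 43.0 CPM when primed, and 37.4, 35.7 and 39.7 CPM after NKG2D. WT libraries held 44.6, 43.4 and 54.4 CPM, 48.6, 42.2 and 45.7 CPM, and 33.1, 36.5 and 36.8 CPM in the same conditions. Fresh KO libraries were above all others, and elsewhere the genotypes overlapped. Mlx fell on priming in KO (log2 fold change -0.48, SE 0.119, adjusted p = 0.00313), with -0.06 in WT (adjusted p = 0.696), and the difference of -0.42 did not pass (adjusted p = 0.121). The fresh genotype difference was 0.33 (SE 0.119, adjusted p = 0.253). On stimulation Mlx fell by 0.36 in WT (SE 0.119, adjusted p = 0.0409), a call lost in 5 of the 6 fits that left out 1 of those WT libraries, all but the one without primed WT replicate 2, with adjusted p of 0.0527 to 0.145, and also with RLE factors (0.0507), no filter (0.26) and those libraries alone (0.0505). Mlx overlaps Psmc3ip on the opposite strand over 385 bases, and the sources used here do not say whether counting used strand.

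Mlxip, the gene of MondoA, was present throughout at 14.9 to 32.1 CPM with no genotype difference past the threshold. In KO cells it fell on priming (log2 fold change -0.50, adjusted p = 0.00926) and rose on stimulation (0.58, adjusted p = 0.00471), and in WT cells it was at -0.30 (adjusted p = 0.0872) and 0.20 (adjusted p = 0.377). The KO fall of Mlxip was lost without fresh KO replicate 1 (-0.41, adjusted p = 0.063) or primed KO replicate 1 (-0.33, adjusted p = 0.0861). On priming Mga, a MAX partner that works as a repressor, was at -0.31 in KO (adjusted p = 0.0857) and fell in WT (-0.63, adjusted p = 0.0015).

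Mlxipl, the gene of ChREBP and a factor best known from liver and fat, was close to the limit of detection. Primed KO libraries held 24, 6 and 16 reads of it and primed WT libraries 0, 0 and 2. Stimulated KO libraries held 7, 20 and 7 reads and stimulated WT libraries 2, 2 and 0, and fresh KO libraries held 0, 5 and 0 against 0, 0 and 2 in fresh WT. In both cultured conditions every KO library had more Mlxipl reads than every WT library. Of all tested genes, 31.6% in primed cells and 34.8% after NKG2D had genotypes that did not overlap. Summed over libraries and scaled to their sizes, KO over WT, the ratio was 28.4 in primed cells, 9.43 after NKG2D and 2.23 in fresh cells. These ratios rest on few reads, which carry no molecular barcodes. No interval is given, since Mlxipl passed the filter only through KO libraries. The edgeR fit with the filter is not read for Mlxipl. In the fit without a filter on low counts the primed log2 fold change was 4.85 (SE 1.33), a value that depends on how reads of 0 are treated. That fit gave 3.15 after NKG2D (SE 1.22) and 1.14 in fresh cells (SE 1.45). These values are descriptions and not tests. Of the 46 Mlxipl reads in primed KO libraries, 24 were in replicate 1, the library that stood apart from its group.

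Txnip, at 96557957 to 96561883 on chromosome 3 (plus strand), encodes the thioredoxin-interacting protein, which binds thioredoxin and promotes internalisation of glucose carriers. KO libraries held 352, 330.1 and 342 CPM when fresh, 171, 188 and 173 CPM when primed, and 262, 220.4 and 203 CPM after NKG2D. WT libraries held 395, 391 and 408 CPM when fresh, 243, 238 and 165 CPM when primed, and 288, 332 and 322 CPM after NKG2D. All KO libraries were below all WT libraries when fresh and after NKG2D, and in primed cells WT replicate 3 lay below the KO libraries. Txnip was lower in KO after NKG2D (log2 fold change -0.46, SE 0.126, 95% interval -0.72 to -0.19, adjusted p = 0.0169). The call was lost without KO replicate 3 (-0.39, adjusted p = 0.0822), WT replicate 2 (-0.41, adjusted p = 0.0757) or WT replicate 3 (-0.43, adjusted p = 0.0593). The log2 fold change was -0.22 in fresh cells (SE 0.125, adjusted p = 0.482) and -0.28 in primed cells (SE 0.126, adjusted p = 0.142). Without primed WT replicate 3 the primed difference passed, at -0.44 with an adjusted p of 0.00881.

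Txnip was lower in primed than in fresh cells, by 0.94 in KO (SE 0.127, adjusted p = 9.1e-06) and by 0.89 in WT (SE 0.126, adjusted p = 1.39e-05). The difference between these responses was -0.06, with a 95% interval of -0.43 to 0.32. The parts of the culture and of IL-15 in this fall were not tested. Stimulation raised Txnip by 0.36 in KO (SE 0.126, adjusted p = 0.0322) and by 0.54 in WT (SE 0.126, adjusted p = 0.00493). The KO response of Txnip was lost without primed KO replicate 1 (0.32, adjusted p = 0.108), primed KO replicate 3 (0.35, adjusted p = 0.0819) or NKG2D KO replicate 1 (0.26, adjusted p = 0.147), with limma voom (0.21, adjusted p = 0.0681) and with those libraries alone (adjusted p = 0.057). The antisense gene Gm15441 spans the whole of Txnip. It was at 1.91 ± 0.278 CPM in KO and 2.58 ± 0.438 CPM in WT after NKG2D (SD, n = 3 each), and without knowledge of strand its reads and those of Txnip cannot be told apart.

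Arrdc4, at 68736995 to 68749241 on chromosome 7 (minus strand), is the alpha-arrestin closest to Txnip in its known control by MondoA and ChREBP. After NKG2D the KO libraries held 3.48, 2.81 and 3.79 CPM (83, 60 and 93 reads) and the WT libraries 7.17, 7.49 and 8.99 CPM (251, 157 and 192 reads). The highest KO library lay well below the lowest WT library. Summed reads gave a KO over WT ratio of 0.436 (exact 95% interval 0.374 to 0.508, counting error alone). The edgeR log2 fold change was -1.23 (SE 0.491, adjusted p = 0.0933) and did not pass, while DESeq2 (-1.24, adjusted p = 0.0115), limma voom (-1.11, adjusted p = 0.00121), no filter (-1.22, adjusted p = 0.00995) and the NKG2D libraries alone (-1.23, adjusted p = 0.00748) passed.

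In the other conditions Arrdc4 overlapped between genotypes, at 2.95, 2.60 and 4.43 CPM in fresh KO and 2.94, 3.57 and 2.98 CPM in fresh WT libraries, and at 0, 1.42 and 1.20 CPM in primed KO and 1.70, 2.35 and 1.17 CPM in primed WT libraries. Stimulation raised it in both genotypes, by 1.87 in KO (SE 0.541, adjusted p = 0.0122) and 2.20 in WT (SE 0.514, adjusted p = 0.00542). Priming lowered it in KO (log2 fold change -1.86, SE 0.54, adjusted p = 0.00877), with -0.88 in WT (SE 0.512, adjusted p = 0.157). Without fresh KO replicate 3 the KO fall of Arrdc4 was -1.55 with an adjusted p of 0.0504. With only the libraries of each comparison fitted, the KO fall (adjusted p = 0.109) and the KO rise (adjusted p = 0.136) did not pass. Of 3 other alpha-arrestin genes tested, Arrdc3 was called after NKG2D and was higher in KO (log2 fold change 0.70, adjusted p = 0.00463), opposite in sign to Txnip and Arrdc4.

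Between genotypes, 4 of the 9 tested members had KO and WT libraries that did not overlap in fresh cells (Myc, Max and Mlx higher and Txnip lower in KO), where 27% of all tested genes did not overlap. In primed cells there were 3 (Myc higher, Max and Mxi1 lower; background 31.6%). After NKG2D there were 6 (Mxd1 and Mxd4 higher, Myc, Max, Txnip and Arrdc4 lower; background 34.8%). In the authors' deposited table of the NKG2D comparison, Myc was at -0.71 (adjusted p = 0.00291), Max at -0.22 (adjusted p = 0.0173), Txnip at -0.62 (adjusted p = 3.95e-07), Mxd1 at 0.58 (adjusted p = 4.78e-05), Arrdc4 at -1.12 (adjusted p = 0.000241) and Mxi1 at 0.66 (adjusted p = 0.00465) on the log2 scale. The authors' deposited table of primed cells gives Myc as higher in KO (0.38, adjusted p = 0.0268) and Max (-0.38, adjusted p = 0.00126), Mxi1 (-1.0, adjusted p = 0.0149) and Txnip (-0.29, adjusted p = 0.0219) as lower, of which Max alone passed the test above. The authors' deposited table of fresh cells gives Myc 0.42 (adjusted p = 0.0268), Max 0.29 (adjusted p = 0.0156) and Mlx 0.36 (adjusted p = 0.005) as higher in KO, differences that did not pass the test above.

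Genes that MYC is known to induce were followed in a list of 25, of which all 25 were tested: nucleolar and ribosome biogenesis factors, polyamine enzymes, translation factors and growth genes. This list and those below were chosen with earlier results of these data known. Their counts therefore describe these data and are not independent support. On priming 23 of 25 rose in KO, where 23% of all genes did (median log2 fold change 1.23, against -0.06 over all genes), and 23 rose in WT, where 26.5% of all genes did (median 1.30, against -0.06). Apex1, a DNA repair endonuclease, rose by 2.42 in KO (adjusted p = 4.28e-11) and 2.91 in WT (adjusted p = 8.8e-12). Nop56, a core protein of the snoRNPs that methylate ribosomal RNA, rose by 2.12 in KO (adjusted p = 2.21e-11). On stimulation 24 of 25 fell in KO, where 16.9% of all genes did (median -1.27, against 0.04 over all genes), and 17 fell in WT, where 10.7% did (median -0.55, against -0.01), with Nop56 at -2.17 in KO (adjusted p = 2.66e-10) and -1.12 in WT (adjusted p = 5.95e-07).

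After NKG2D, 19 of the 25 MYC-induced genes were lower in KO than in WT and 1 was higher, with a median of -0.78 against 0.03 over all genes, of which 9.47% were lower. Under 12 other settings of that comparison, 18 to 22 were lower and 1 was higher. Apex1 held 29.3, 27.5 and 26.3 CPM in KO and 76.2, 66.6 and 67.2 CPM in WT libraries (log2 fold change -1.34, adjusted p = 2.23e-06). Eif4e, the cap-binding translation factor, held 71.5, 79.1 and 70.7 CPM in KO and 136, 114 and 131 CPM in WT libraries (-0.78, adjusted p = 3.32e-05). For both genes the KO libraries lay close together and far below the WT libraries. The exception was E2f2, a cell cycle factor, at 48.3, 39.4 and 45.8 CPM in KO and 12.0, 15.5 and 15.5 CPM in WT libraries (1.64, adjusted p = 2.63e-06).

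In primed cells 3 of the 25 were higher in KO and 1 lower, near the 7% and 8.52% of all genes, with a median of 0.03 against -0.02 over all genes. Among them were E2f2 (1.27, adjusted p = 2.7e-05), Nop56 (0.58, adjusted p = 0.000782) and Ldha, the lactate dehydrogenase subunit (-1.17, adjusted p = 0.000183). In fresh cells 0 of 25 passed by edgeR, with a median of 0.16, while 4 had an unadjusted p below the threshold, 0 passed with DESeq2 and 4 with limma voom. Of all 14864 genes, 1903 had such an unadjusted p, so the 4 of 25 stood near the share of all genes. The response to stimulation differed between genotypes for 13 of the 25, all toward a larger loss in KO (median difference -0.81, against 0.05 over all genes, of which 2.07% were lower). Nop56 differed by -1.05 (adjusted p = 0.000701) and Apex1 by -1.23 (adjusted p = 0.00072), and 11 to 21 of the 25 passed under 19 other settings. These comparisons share libraries with those of Myc itself.

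**Figure D4:**
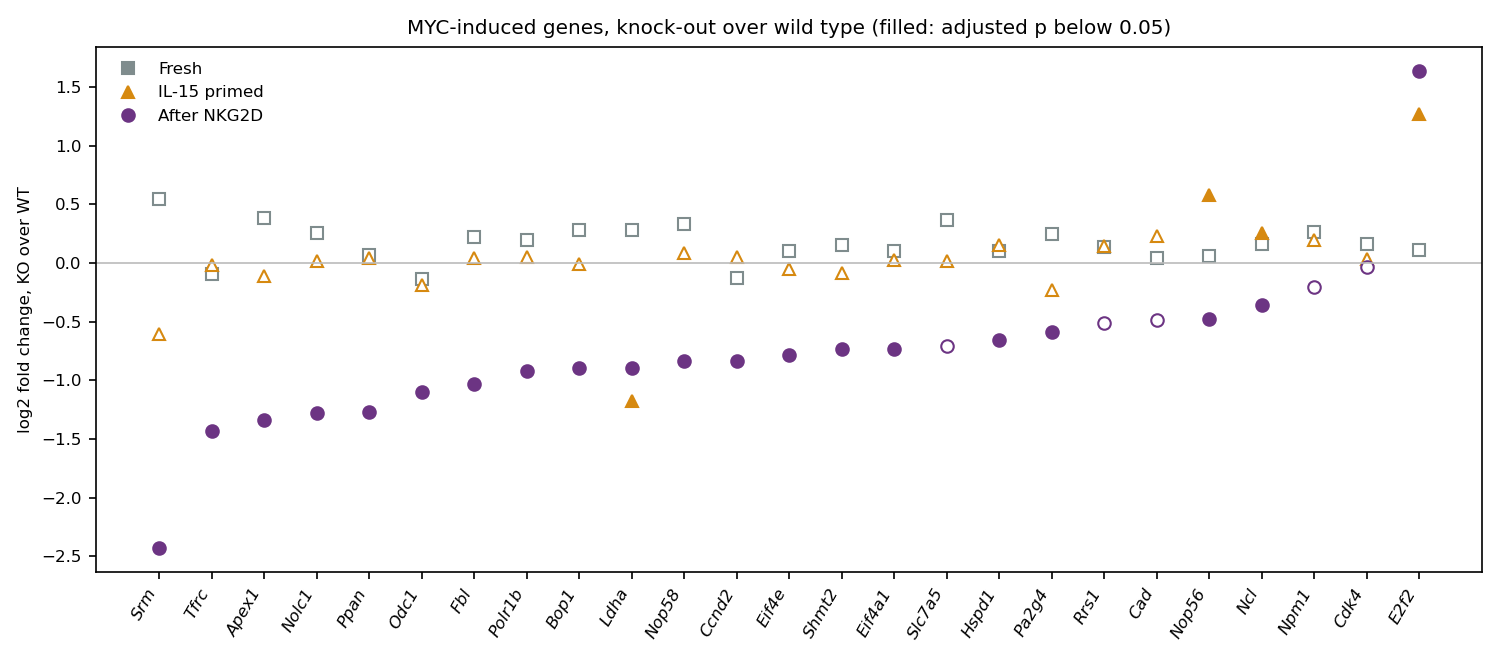
Log2 fold change, KO over WT, of 25 genes known to be induced by MYC, ordered by their value after NKG2D; squares are fresh, triangles IL-15-primed and circles NKG2D-stimulated cells, filled where the adjusted p is below 0.05. After NKG2D, 19 filled circles lie below 0 and E2f2 lies above it at 1.64, while in fresh cells no square is filled. The list was chosen with earlier results of these data known.

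Of 10 genes known to be repressed by MYC, 3 were higher and 0 lower in primed KO cells, where 7% and 8.52% of all genes were (median 0.62, against -0.02 over all genes), among them the antiproliferative genes Tob1 (1.70, adjusted p = 0.0033) and Btg2 (0.73, adjusted p = 0.00653). After NKG2D 2 were higher, Tob1 (1.33, adjusted p = 0.0106) and the cyclin-dependent kinase inhibitor Cdkn1b (0.86, adjusted p = 0.0406), and the stress gene Gadd45b was lower (-1.52, adjusted p = 0.00046), where 8.75% of all genes were higher and 9.47% lower (median 0.18, against 0.03). Under 12 other settings of the NKG2D comparison, 0 to 4 were higher and 1 lower. The call of Cdkn1b was lost in 7 of them (adjusted p up to 0.219, without NKG2D KO replicate 2) and that of Tob1 in 2 (0.0585 without NKG2D KO replicate 2 and 0.0514 without NKG2D WT replicate 3). On priming, 5 of the 10 fell in KO and 7 in WT, where 25.7% and 27.2% of all genes fell, while 3 rose in KO and 2 in WT, near the 23% and 26.5% of all genes. Cdkn1a was at 2.05 in KO (adjusted p = 5.93e-06) and 1.39 in WT (adjusted p = 0.000225). On stimulation 3 of the 10 rose and 1 fell in KO, where 18.4% and 16.9% of all genes did. Their median was -0.14, against 0.04 over all genes. In WT 2 rose and 1 fell, where 9.2% and 10.7% of all genes did (median 0.63, against -0.01).

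Cofactors of the network moved in both directions. Of 7 corepressor genes that the MXD proteins, MXI1 and MNT recruit, Sin3a, the scaffold they bind (0.67, adjusted p = 0.00213), and Ncor1 (0.39, adjusted p = 0.0106) were higher in KO after NKG2D, and the deacetylase Hdac2 was lower (-0.63, adjusted p = 0.0136). Under 12 other settings the calls of Ncor1 and Hdac2 were each lost in 3, among them the NKG2D libraries alone (0.0702 for Ncor1 and 0.0558 for Hdac2). Of 8 coactivators of MYC, the chromatin remodelling subunit Bptf was higher (0.30, adjusted p = 0.0224) and the ATPase Ruvbl1 lower (-0.63, adjusted p = 0.00167). The call of Bptf was lost in 5 of the 12 settings, with an adjusted p of 0.218 without a filter and 0.117 with the NKG2D libraries alone. Of 7 genes for enzymes that act on MYC protein stability, the ubiquitin ligase gene Skp2 was higher in KO after NKG2D (0.95, adjusted p = 0.00686) and when primed (0.69, adjusted p = 0.0422), and Huwe1, another ubiquitin ligase gene, was lower when primed (-0.44, adjusted p = 0.0495). Under 13 other settings the primed call of Skp2 was lost in 6 and that of Huwe1 in 10, with adjusted p of 0.137 for Skp2 and 0.224 for Huwe1 without primed KO replicate 1. These 3 lists are small, and their counts stand beside backgrounds of 7% higher and 8.52% lower in primed cells and 8.75% and 9.47% after NKG2D. MYC protein was not measured.

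Genes of the thioredoxin system, glucose carriers and hexokinases were followed in a list of 8, all tested. TXNIP binds thioredoxin and promotes internalisation of glucose carriers as proteins, and that action was not measured here. In primed cells 5 of the 8 were lower in KO and 0 higher (median -0.49, against -0.02 over all genes, of which 8.52% were lower), and 3 to 5 were lower under 13 other settings. Without primed KO replicate 1 there were 3. Cd3g and Cd68 were also called lower in primed KO cells, as given above, and their part in this count was not tested. The glucose carrier Slc2a1 held 61.7, 57.9 and 85.8 CPM in KO and 138, 203 and 176 CPM in WT libraries (log2 fold change -1.33, adjusted p = 6.65e-05). The groups lay well apart. Slc2a3, another glucose carrier, was at -0.93 (adjusted p = 0.000624). After NKG2D 3 were lower, where 9.47% of all genes were, with hexokinase Hk2 at -1.69 (adjusted p = 0.000241) and Slc2a3 at -0.77 (adjusted p = 0.00234). The priming response differed between genotypes for 4 of the 8, all lower in KO, where 6.41% of all genes were (median difference -0.67, against -0.01), among them Slc2a1 (-1.55, adjusted p = 0.000781) and Txn1, thioredoxin itself (-0.76, adjusted p = 0.00548).

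Of 13 other genes known as ChREBP or MondoA targets in liver and other cells, 9 were tested. In primed cells 2 were higher in KO, fatty acid synthase Fasn (1.25, adjusted p = 0.000508) and Klf10 (0.43, adjusted p = 0.0167), and Bhlhe40 was lower (-0.50, adjusted p = 0.0151), beside 7% and 8.52% of all genes. Bhlhe40 was lost without primed KO replicate 1 (-0.46, adjusted p = 0.0533), without primed WT replicate 2 (-0.45, adjusted p = 0.0667) and in the joint omission of primed KO replicate 1 and primed WT replicate 3. Klf10 was lost without primed KO replicate 2 (0.34, adjusted p = 0.0894), without primed WT replicate 1 (0.41, adjusted p = 0.0671) and with the primed libraries alone (adjusted p = 0.0533). After NKG2D the fatty acid elongase Elovl6 was higher (0.78, adjusted p = 0.00108) and no other was called, where 8.75% of all genes were higher. The medians of the 9 lay at 0.08 and 0.04 in these comparisons, against -0.02 and 0.03 over all genes. On priming 5 of the 9 rose and 2 fell in each genotype (background 23% and 25.7% in KO, 26.5% and 27.2% in WT). On stimulation 2 rose and 5 fell in each (background 18.4% and 16.9% in KO, 9.2% and 10.7% in WT). The medians were 0.75 in KO and 0.70 in WT on priming, and -0.37 and -0.48 on stimulation. Txnip and Arrdc4 had the opposite signs.

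Across the 18 libraries, the 5 of 7994 well expressed genes whose log2 CPM ran most like that of Myc were Bcl2 (Pearson r = 0.979), Nrros (0.979), Egr1 (0.972), Uck2 (0.964) and Gpd2 (0.954). For Txnip they were Gabarapl2 (0.936), Gfod1 (0.927), Usf2 (0.918), Wls (0.912) and Stim2 (0.911). Both rankings are descriptions over libraries that share 3 conditions and 2 genotypes, which set most of the variation.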

How the data were processed

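The deposited gene table holds expected counts (estimated reads, unscaled), of which 30% of those above 0 had a fractional part. The submitters' processing notes name bcl2fastq, DRAGEN, edgeR and mm10, but neither versions nor annotation nor strandedness is given in the sources used here. The design had allowed for whole counts, so the expected counts were rounded. Libraries held 14772350 to 34367582 reads. The 55774 rows gave 55487 identifiers, since 168 occurred more than once with equal values. The authors also deposited comparison tables with log2 fold changes and p-values, used for the sentences that name them; 54 per-library columns in them were not used.

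All 18 libraries were fitted in edgeR 4.0.16 (R 4.3.3) with TMM factors, the edgeR expression filter, 1 mean per group and quasi-likelihood dispersion (12 residual degrees of freedom), adjusted by Benjamini and Hochberg over 14864 genes within each comparison. A difference of responses was tested in the same fit. Mlxipl, which passes the filter in KO libraries but not in WT libraries, was left out of counts of members and of the alternatives, apart from the fit without a filter. The method was tested on simulated data. Exact intervals for ratios of reads are binomial and cover counting error alone. Exon lengths came from GENCODE M21 (GRCm38).

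The named genes are the 10 members, Acly, the 5 network genes outside them, at most 2 risen and 2 fallen genes of smallest p per list and comparison, and the 5 genes most like Myc and Txnip (mean log2 CPM of 3 or more). Cd4, Cd8a, Cd68, Lyz2, S100a8, S100a9, Psmc3ip, Gm15441, Gm44292 and, in primed cells, Cd3e were named after their values were seen. Members and lists were chosen with earlier results of these data known. Other settings were DESeq2 1.42.0, limma voom 3.58.1 with sample weights, RLE factors, no filter, the libraries of a comparison alone, a replicate block and leaving out each library. Leaving out primed KO replicate 1 and primed WT replicate 3 together was chosen after seeing the data.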

Additional observations from a re-analysis of the deposited data

Results flagged for a closer look

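The response of Max to IL-15 priming differed between the genotypes, by -0.67 on the log2 scale (KO response minus WT response, adjusted p = 0.0147). In KO cells its mean was 94.5 CPM when primed and 97.0 CPM when fresh, and in WT cells 121 CPM when primed and 78.4 CPM when fresh.

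The response of Mxd1 to NKG2D differed by 0.59 on the log2 scale (adjusted p = 0.0322). Its mean was 38.3 CPM after NKG2D and 26.2 CPM when primed in KO cells, and 26.3 CPM after NKG2D and 27.0 CPM when primed in WT cells.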

How the results depend on the processing

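Of 1143 recomputed log2 fold changes of the 9 tested genes, 1013 kept their direction and their side of the threshold, 62 lost a call, 30 gained one and 38 changed sign without a call in either fit; the causes were not tested. Where not named, values below are log2 fold changes, KO over WT between genotypes and later over earlier condition in responses. Depth limits Mlxipl most, with at most 24 reads in a library.

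Counts of the 9 genes that passed moved as follows. For the NKG2D response difference, where 1 passed, DESeq2, limma voom and no filter gave 3, while the libraries of the comparison alone, the replicate block and the joint omission of primed KO replicate 1 and primed WT replicate 3 gave 0. For the priming difference, where 1 passed, limma voom and no filter gave 2 and the replicate block 0. In fresh cells limma voom gave 2 in place of 0, and after NKG2D it gave 6 in place of 3. In primed cells, where 1 passed, DESeq2 and limma voom gave 2, and RLE factors and the primed libraries alone 0. The KO libraries alone gave 3 in place of 6 for the NKG2D response. With each library left out in turn the counts ran from 0 to 0 in fresh cells, 0 to 2 in primed cells, 1 to 3 after NKG2D, 6 to 8 and 5 to 6 for priming in KO and WT, 5 to 6 and 4 to 5 for the NKG2D response in KO and WT, 0 to 1 for the priming difference and 0 to 2 for the NKG2D difference.

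Same-numbered libraries deviated from their group means with correlations of -0.146 to 0.131, and no comparison had every pair over 0.1. The labels state no pairing, and such correlations, from means of 3 libraries, cannot exclude one. The replicate block raised the adjusted p of Max in primed cells to 0.0642, of the Max priming difference to 0.0516, of the Mxd1 NKG2D difference to 0.0651, of Txnip in the KO response to 0.0618 and of Mlx in the WT response to 0.0748, and lowered that of Mxi1 in primed cells to 0.0446. It changed no other call among the 9 genes.

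Values of genes without a call that changed sign were, with limma voom, Mnt at -0.0014 and Arrdc4 at -0.032 in fresh cells, Mxi1 at -0.099 in WT priming, Mnt at -0.024 in the WT NKG2D response and Mxd1 at -0.0071 in the priming difference. Without a filter, Mxd1 was at 0.0028 in the WT NKG2D response. In KO priming Max was at 0.020 with those libraries alone and at 0.014 in the joint omission, which put Mnt at 0.0055 in primed cells. With each library left out in turn, fresh values ran from -0.13 to 0.00092 for Mxd1, -0.23 to 0.056 for Mxd4, -0.023 to 0.27 for Mnt and -0.20 to 0.21 for Arrdc4. Primed values ran from -0.12 to 0.069 for Mxd1, -0.49 to 0.036 for Mnt and -0.16 to 0.0054 for Mlx, and after NKG2D Mnt ran from -0.062 to 0.31. In KO priming Max ran from -0.036 to 0.052, and in WT priming Mxi1 ran from -0.079 to 0.37 and Mlx from -0.12 to 0.054. In the WT NKG2D response Mxd1 ran from -0.13 to 0.050, Mxi1 from -0.22 to 0.32 and Mnt from -0.0059 to 0.11. The priming difference ran from -0.23 to 0.0070 for Myc, -0.048 to 0.14 for Mxd1 and -0.22 to 0.063 for Txnip, and the NKG2D difference from -0.85 to 0.17 for Arrdc4.

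Over all genes the number called in fresh cells was 10, against 137 with DESeq2, 1900 with limma voom, 564 without a filter and 780 with the fresh libraries alone. In primed cells it was 2307, against 4214 with limma voom and 1128 with those libraries alone, and after NKG2D 2708, against 6256 with limma voom. The KO NKG2D response had 5248, against 3450 alone, and the WT one 2954, against 5295 with limma voom. The priming difference had 1559, against 4157 with limma voom and 972 with the replicate block. The NKG2D difference had 528, against 1016 with DESeq2, 2114 with limma voom, 887 without a filter, 203 alone and 250 with the block. With each library left out these counts ran from 5 to 12, 1357 to 2589, 1643 to 3051 and, for the differences, 842 to 2453 and 242 to 598.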
